A study of Mus musculus with 13 samples.

Results

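Thermogenic genes of brown and beige fat were followed in gluteal white adipose tissue (WAT), a posterior subcutaneous fat pad, of mice reared at a cool or a warm temperature. The 10 genes, *Cidea*, *Otop1*, *Ucp1*, *Dio2*, *Cpt1b*, *Fabp3*, *Mpzl2*, *Pdk4*, *Acot11* and *Letmd1*, were taken by name from the table of 34419 genes, and each had 1 row in it. Male C57BL/6J mice were bred in thermal chambers and kept at 22°C or at 29°C from birth until 13 weeks of age. In both groups, the mice were housed singly with minimal bedding and no nesting material, and hair was removed from the posterior body after weaning. Neither group is an unshaved control. The 22°C group held 7 mice and the 29°C group held 6, and each mouse gave 1 RNA sequencing library.

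Brown and beige adipocytes burn fuel to make heat. UCP1, in their inner mitochondrial membrane, lets protons return to the matrix without making ATP, and the fuel is largely fatty acids that enter mitochondria through the carnitine shuttle. Noradrenaline drives the programme through β-adrenergic receptors and cAMP, and cold is its best known stimulus. White fat pads differ in how readily beige adipocytes appear in them. Several of the 10 genes are also strongly expressed in muscle, *Cpt1b*, *Fabp3* and *Pdk4* among them.

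The sequences just before the start sites of *Ucp1*, *Dio2* and *Fabp3* are shown because *Ucp1* and *Dio2* are textbook cAMP-responsive genes, and *Fabp3* was the member that followed muscle genes most closely at 22°C. They are the 250 bases before each start in RefSeq on mouse build GRCm38.p6, written 5′ to 3′ on the strand of the gene. Capitals mark matches to the motifs described after them. *Ucp1* is at chr8:83290098-83290347 on the plus strand, *Dio2* at chr12:90739039-90739288 on the minus strand and *Fabp3* at chr4:130308488-130308737 on the plus strand.
Ucp1: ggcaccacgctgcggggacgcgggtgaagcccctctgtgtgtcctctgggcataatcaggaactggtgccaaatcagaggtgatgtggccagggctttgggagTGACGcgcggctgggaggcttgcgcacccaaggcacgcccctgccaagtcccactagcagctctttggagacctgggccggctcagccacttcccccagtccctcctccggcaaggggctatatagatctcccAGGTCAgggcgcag
Dio2: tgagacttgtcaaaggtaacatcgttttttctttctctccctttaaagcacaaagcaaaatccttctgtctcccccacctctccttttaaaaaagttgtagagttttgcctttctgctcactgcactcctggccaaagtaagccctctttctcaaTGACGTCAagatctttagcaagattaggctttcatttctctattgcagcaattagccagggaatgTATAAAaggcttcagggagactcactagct
Fabp3: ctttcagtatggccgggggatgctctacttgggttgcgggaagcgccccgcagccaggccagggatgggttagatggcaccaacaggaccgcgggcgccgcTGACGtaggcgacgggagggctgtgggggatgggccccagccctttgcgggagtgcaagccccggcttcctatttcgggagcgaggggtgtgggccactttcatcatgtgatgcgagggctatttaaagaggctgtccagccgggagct

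Of the 10 genes, 7 matched a promoter in that set. The cAMP response element, TGACGTCA, stood in the *Dio2* sequence 95 bases before the start, and 1.55% of 32851 promoters of the same length held it. Its shorter form TGACG, which overlaps the full element in *Dio2* on both strands, also stood in *Ucp1* at 147 and in *Fabp3* at 149 bases before the start, and 17.8% of promoters held it. The nuclear receptor half-site AGGTCA was 14 bases before the *Ucp1* start and 201 bases before the *Letmd1* start (14.0% of promoters). The TATA box TATAAA stood 30 bases before the *Dio2* start (12.4% of promoters). A direct repeat of AGGTCA with 1 base between the copies (0.0335% of promoters) and the element TNAAGGTCA (1.14%) were also searched on both strands and had no match in the members. None of the 6 motifs matched in the windows of *Otop1*, *Pdk4* or *Acot11*. A match describes letters in a window, and no match says only that these letters are not in it.

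Total counts per library were between 22356637 and 25245785. They fell into a cluster of 5 libraries with lower totals, which were 22°C replicates 1 to 5, and a cluster of 8 with higher totals, so that a comparison at similar totals rests on 2 mice at 22°C. Mature adipocyte markers, such as the adipsin gene *Cfd*, summed to between 24000 and 37000 CPM (counts scaled to library size) at 22°C and between 30500 and 37600 CPM at 29°C, and *Lep*, the leptin gene, was the 1 of 10 called (log2 fold change -0.78, SE 0.15, P-adj = 0.0564, edgeR, and up to 0.124 without 29°C replicate 1 or 2). A list of 35 skeletal muscle genes set 3 libraries apart. Their muscle sums were 85780 CPM in 22°C replicate 1, 18440 CPM in replicate 4 and 110300 CPM in replicate 7, or 7.28%, 1.93% and 9.68% of all counts, whereas the other 4 libraries at 22°C had between 1127 and 8888 CPM and the 6 at 29°C between 195.5 and 9035 CPM. All 35 muscle genes had a log2 fold change above 0, with a median of 3.26, and 26 had an unadjusted p below 0.05, yet edgeR called none and DESeq2 called 22. Markers of other cell types were called by edgeR in 0 of 10 (macrophage), 1 of 9 (lymphocyte), 0 of 7 (blood), 0 of 7 (epithelium) and 0 of 8 (Schwann cell), with an unadjusted p below 0.05 in 0, 1, 0, 0 and 1 of them, and by DESeq2 in none. Over all genes, edgeR called 1.94% and DESeq2 10.2%, and 18.5% had an unadjusted p below 0.05, so few or no calls in short marker lists are near these shares. In whole tissue, fewer cells of a type and less RNA per cell cannot be told apart.

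*Cidea* and *Otop1* rose at 22°C. *Dio2*, *Mpzl2*, *Cpt1b*, *Fabp3*, *Pdk4* and *Acot11* had higher means at 22°C but did not pass the test, *Letmd1* had a log2 fold change near 0, and *Ucp1* was too low to be tested. Counts were compared with the quasi-likelihood test of edgeR, adjusted over all 17779 genes tested (P-adj), and genes with P-adj below 0.1 were called. Of the 10 members, 9 passed the filter on low counts, and 2 of them (22.2%) were called, against 1.94% of all tested genes in either direction and 0.731% called higher at 22°C. The median log2 fold change of the 9 was 2.17, against 0.0074 over all tested genes. All 9 had a log2 fold change above 0, against 51.6% of tested genes, and 8 had an unadjusted p below 0.05, against 18.5%. DESeq2 called 6 of the 9, all higher at 22°C, against 10.2% of genes in either direction and 5.58% higher. Since the members were picked with earlier results of these data known, these shares are a description.

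*Cidea* (ENSMUSG00000024526.10) encodes a lipid droplet protein that is abundant in brown fat. At 22°C its level was 24.7, 8.74, 20.1, 7.72, 18.2, 8.90 and 4.07 CPM in replicates 1 to 7, and at 29°C it was 2.53, 2.35, 2.75, 1.39, 3.17 and 1.64 CPM in replicates 1 to 6. The groups did not overlap, and the lowest at 22°C, replicate 7, was close to the highest at 29°C, replicate 5. Among all tested genes, 1.24% separated the groups in this way in either direction and 0.495% with 22°C higher. The means were 13.2 ± 7.71 CPM (SD, n = 7) and 2.31 ± 0.674 CPM (SD, n = 6), which edgeR put at a log2 fold change of 2.51 with SE 0.40 (P-adj = 0.0199). Within the 8 libraries with higher totals, where 22°C replicates 6 and 7 are the only mice at 22°C, the log2 fold change of *Cidea* was 1.48 (SE 0.35) and was not called (P-adj = 0.261, edgeR). The part of library totals in the difference cannot be told apart in full, because the lower totals held mice of 1 temperature.

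*Otop1* (ENSMUSG00000051596.16) encodes a proton channel found in brown fat. It had 9.59, 3.13, 5.62, 1.34, 6.87, 5.39 and 1.67 CPM in 22°C replicates 1 to 7 and 0.345, 0.386, 0.928, 0.0752, 0.665 and 1.39 CPM in 29°C replicates 1 to 6. The groups met at a single pair, since 22°C replicate 4 lay just under 29°C replicate 6, and the other 6 mice at 22°C were above all mice at 29°C. The 22°C group was 2.92 higher on the log2 scale (SE 0.59; P-adj = 0.0596, edgeR). The call was lost when 29°C replicate 1 (P-adj = 0.110), 2 (P-adj = 0.144), 3 (P-adj = 0.147) or 5 (P-adj = 0.102) was left out of the edgeR fit. Within the 8 libraries with higher totals it was 2.47 (SE 0.75; P-adj = 0.275, edgeR).

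**Figure D1:**
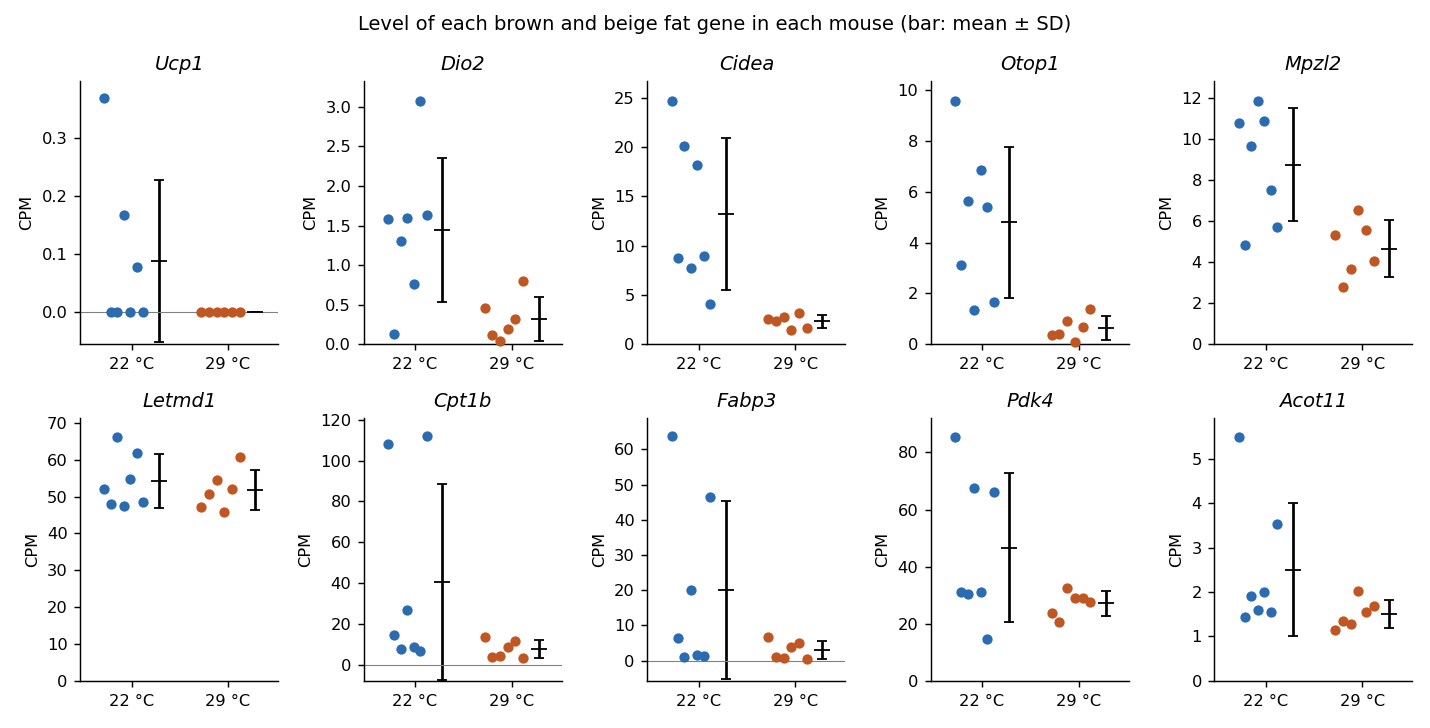
Level of each of the 10 genes in each mouse, in CPM on linear axes (each panel has its own scale). Points are mice, ordered by replicate number within 22 °C (blue, 7 mice) and 29 °C (orange, 6 mice), and the black bar is the mean ± SD; *Cidea* separates the groups, and *Cpt1b* and *Fabp3* are highest in 22°C replicates 1 and 7.

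*Ucp1* (ENSMUSG00000031710.5), the uncoupling protein itself, had 13 counts in all. Of these, 7 were in 22°C replicate 1 (0.369 CPM, exact Poisson 95% interval 0.148 to 0.76), 4 in replicate 4 (0.168 CPM, 0.0457 to 0.43) and 2 in replicate 6 (0.077 CPM, 0.00933 to 0.278), while the other 4 mice at 22°C and all 6 at 29°C had none. These intervals cover counting error only. For a count of 0, the same interval has an upper limit between 0.156 and 0.167 CPM in the mice without a count at 22°C. At 29°C this limit was between 0.139 and 0.155 CPM. A mouse without a count may thus still have had a level up to that limit. The means were 0.0877 ± 0.139 CPM (SD, n = 7) and 0 CPM (n = 6), and a two-sided exact permutation test gave p = 0.245. With counts in only 3 libraries, all at 22°C, no lower p was possible in that direction, so the test says nothing about the difference.

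Set against *Cidea* in the same libraries and per length, *Ucp1* was a small quantity. *Cidea* was 98.3-fold above *Ucp1* in CPM per kb of exon in 22°C replicate 1, 67.5-fold in replicate 4 and 169-fold in replicate 6. Replicate 1 had the most counts of both genes, with 469 of *Cidea*. In the other mice the genes did not go together, since 22°C replicates 3 and 5 had no *Ucp1* count at 443 and 430 *Cidea* counts, whereas replicate 4 had 4 at 184 and replicate 6 had 2 at 231. Without 22°C replicates 1, 4 and 7, the libraries with the high muscle sums, 1 mouse with *Ucp1* counts remained and the mean difference was 0.0193 CPM, for which no permutation test could have passed a threshold.

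*Dio2* (ENSMUSG00000007682.8) encodes the deiodinase that makes active thyroid hormone inside brown adipocytes. Its level was 1.58, 0.127, 1.31, 1.59, 0.763, 3.08 and 1.63 CPM in 22°C replicates 1 to 7, with 80 counts in replicate 6 and 3 in replicate 2, and it ranged from 0.0387 to 0.800 CPM at 29°C with a median of 0.251. Replicate 2 lay among the mice at 29°C, as did replicate 5, and the other 5 lay above them. Its log2 fold change was 2.17 with SE 0.62, and it was not called (P-adj = 0.122, edgeR). It was called once 22°C replicate 2, the lowest of its group, was left out (2.38, P-adj = 0.0803, edgeR). Of the 3 mice with *Ucp1* counts, replicate 6 had the highest *Dio2* level.

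*Mpzl2* (ENSMUSG00000032092.6), also known as *Eva1*, encodes a cell adhesion protein used as a marker of brown fat. It ranged from 4.86 to 11.9 CPM at 22°C (median 9.70) and from 2.78 to 6.54 CPM at 29°C (median 4.69). At 22°C, 5 of 7 mice lay above all those at 29°C, and replicates 2 and 7 lay within them. *Mpzl2* missed the threshold at a log2 fold change of 0.91 with SE 0.25 (P-adj = 0.110, edgeR). It passed without 22°C replicate 2 (P-adj = 0.0863, edgeR) or replicate 6 (P-adj = 0.0954, edgeR). *Mpzl2* shares 30.7% of its exon bases with *Gm48840* on the opposite strand, so its counts are uncertain if reads were not counted by strand.

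*Letmd1* (ENSMUSG00000037353.10) encodes a mitochondrial inner membrane protein needed for brown fat function. At 22°C its mean was 54.1 ± 7.31 CPM (SD, n = 7), against 51.8 ± 5.38 CPM (SD, n = 6) at 29°C. The groups overlapped almost wholly, with 47.4 to 66.1 CPM at 22°C and 45.8 to 60.8 CPM at 29°C. *Letmd1* was not called, with a log2 fold change of 0.06 and SE 0.09 (P-adj = 0.759, edgeR).

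Among the tested members, *Cpt1b* and *Fabp3*, both for the handling of fatty acids, had the largest spread between mice at 22°C, with an SD of 118% and 127% of the mean. *Cpt1b* (ENSMUSG00000078937.9) encodes the muscle form of carnitine palmitoyltransferase, the entry step of fatty acids into mitochondria. Its level was 108, 14.5, 7.52, 26.6, 8.61, 6.66 and 112 CPM in 22°C replicates 1 to 7, and 13.7, 3.78, 4.06, 8.84, 11.8 and 3.41 CPM in 29°C replicates 1 to 6. The 3 mice at 22°C with the highest muscle sums were also the 3 highest for *Cpt1b*, and 3 of the other 4 lay within the 29°C range. A log2 fold change of 2.41 with SE 0.77 was not called (P-adj = 0.154, edgeR).

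*Fabp3* (ENSMUSG00000028773.9), the fatty acid binding protein of heart and muscle, had 63.9, 6.34, 0.997, 20.0, 1.48, 1.16 and 46.5 CPM in 22°C replicates 1 to 7 and ranged from 0.379 to 6.64 CPM at 29°C with a median of 2.51. Only 22°C replicates 1, 4 and 7 exceeded the 29°C range, and the other 4 lay inside it. *Fabp3* was not called, with a log2 fold change of 2.76 and SE 1.07 (P-adj = 0.203, edgeR).

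*Pdk4* (ENSMUSG00000019577.7) encodes the kinase that turns pyruvate dehydrogenase off when fatty acids are used. Its level was 85.3, 31.2, 30.3, 67.5, 31.2, 14.5 and 66.1 CPM in 22°C replicates 1 to 7 and between 20.6 and 32.6 CPM at 29°C (median 28.3). Replicates 1, 4 and 7 again stood above all others, and replicate 6 lay below the whole 29°C group. *Pdk4* was not called, with a log2 fold change of 0.78 and SE 0.34 (P-adj = 0.239, edgeR). *Acot11* (ENSMUSG00000034853.17), an acyl-CoA thioesterase, ranged from 1.44 to 5.48 CPM at 22°C (median 1.90) and from 1.15 to 2.03 CPM at 29°C (median 1.46), with only 22°C replicates 1 and 7 above the 29°C range. *Acot11* was not called, with a log2 fold change of 0.72 and SE 0.32 (P-adj = 0.251, edgeR).

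Counts of some of these genes are uncertain because exons overlap. *Cpt1b* shares 81.4% of its exon bases with *Gm44502* on the same strand. That gene, which is no member and was chosen after its values were seen, averaged 75.9 ± 48.3 CPM at 22°C (SD, n = 7), against 38.2 ± 3.94 CPM (SD, n = 6), and was not called at a log2 fold change of 0.99 with SE 0.33 (P-adj = 0.167, edgeR). *Acot11* shares 20.9% of its exon bases with *Fam151a*, *Fabp3* shares 9.84% with *Zcchc17* and 9.72% with *Gm10570*, and *Dio2* shares 1.72% with *Gm26512*, all on the opposite strand.

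Levels of different members can be compared only per length. The place of *Cpt1b* is uncertain even so, because 81.4% of its exon bases are shared with *Gm44502*. On the scale of mean CPM per kb of exon at 22°C, *Fabp3* (24.4), *Pdk4* (13.3), *Cpt1b* (12.01), *Cidea* (11.9) and *Letmd1* (11.2) led, and no neighbours among them kept their order in more than 5 of 7 mice. Below them came *Otop1* (1.40), *Mpzl2* (1.26), *Acot11* (0.412), *Dio2* (0.248) and *Ucp1* (0.0536). *Letmd1* was above *Otop1* in all 7 mice, *Mpzl2* above *Acot11* in 7 and *Dio2* above *Ucp1* in 7, while *Otop1* was above *Mpzl2* in 5 and *Acot11* above *Dio2* in 5. At 29°C the order of mean CPM per kb was *Letmd1* (10.7), *Pdk4* (7.73), *Fabp3* (3.58), *Cpt1b* (2.25), *Cidea* (2.07), *Mpzl2* (0.668), *Acot11* (0.249), *Otop1* (0.184), *Dio2* (0.0549) and *Ucp1* (0). Here *Letmd1* was above *Pdk4* in 6 of 6 mice and *Cidea* above *Mpzl2* in 6 of 6, whereas *Fabp3* was above *Cpt1b* in 4 and *Cpt1b* above *Cidea* in 3.

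Levels of some members went up and down together from mouse to mouse. A muscle score, the mean log2 CPM of the 35 muscle genes in each mouse, was set against each tested member within each temperature, which gave a family of 18 correlations with exact permutation tests. At 22°C (n = 7), *Cpt1b* followed the score with Pearson's r = 0.953 (exact permutation p = 0.00476, adjusted 0.0286) and Spearman's rho = 0.821 (p = 0.0341, adjusted 0.123), and r was 0.954 without the 2 mice farthest from the median score. *Fabp3* gave r = 0.986 (exact permutation p = 0.00317, adjusted 0.0286), rho = 0.893 (p = 0.0123, adjusted 0.1) and, without those 2 mice, r = 1.0. At 29°C (n = 6), where muscle sums lay between 195.5 and 9035 CPM, both genes followed the score again.

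For *Cpt1b* at 29°C, r was 0.925 (exact permutation p = 0.00278, the smallest that this test gives with n = 6, adjusted 0.0286), rho was 1.0 (p = 0.00278, adjusted 0.05) and r without the 2 farthest mice was 0.988. For *Fabp3* at 29°C, r was 0.946 (exact permutation p = 0.00833, adjusted 0.0375), rho was 0.943 (p = 0.0167, adjusted 0.1) and r without the 2 farthest mice was 0.921. Without 29°C replicate 4 or replicate 6 alone, the exact permutation p of *Fabp3* was 0.05. *Pdk4* followed the score less closely at 22°C, with r = 0.851 (exact permutation p = 0.0242, adjusted 0.0871), rho = 0.821 (p = 0.0341, adjusted 0.123) and r = 0.866 without those mice, and at 29°C its r was -0.0143 (exact permutation p = 0.972). The difference between the temperatures was not tested.

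*Cidea* gave r = -0.301 with the muscle score at 22°C (exact permutation p = 0.487, adjusted 0.674; rho -0.214) and 0.432 at 29°C (exact permutation p = 0.394, adjusted 0.604; rho 0.429). *Otop1* gave -0.357 (exact permutation p = 0.402, adjusted 0.604; rho -0.214) and -0.547 (exact permutation p = 0.242, adjusted 0.435; rho -0.6). Without the 2 farthest mice, r at 22°C was -0.845 for *Cidea* and -0.946 for *Otop1*, so the values at 22°C depend on replicates 1 and 5. Of the 18 correlations, the 4 of *Cpt1b* and *Fabp3* had an adjusted Pearson p below 0.05.

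**Figure D2:**
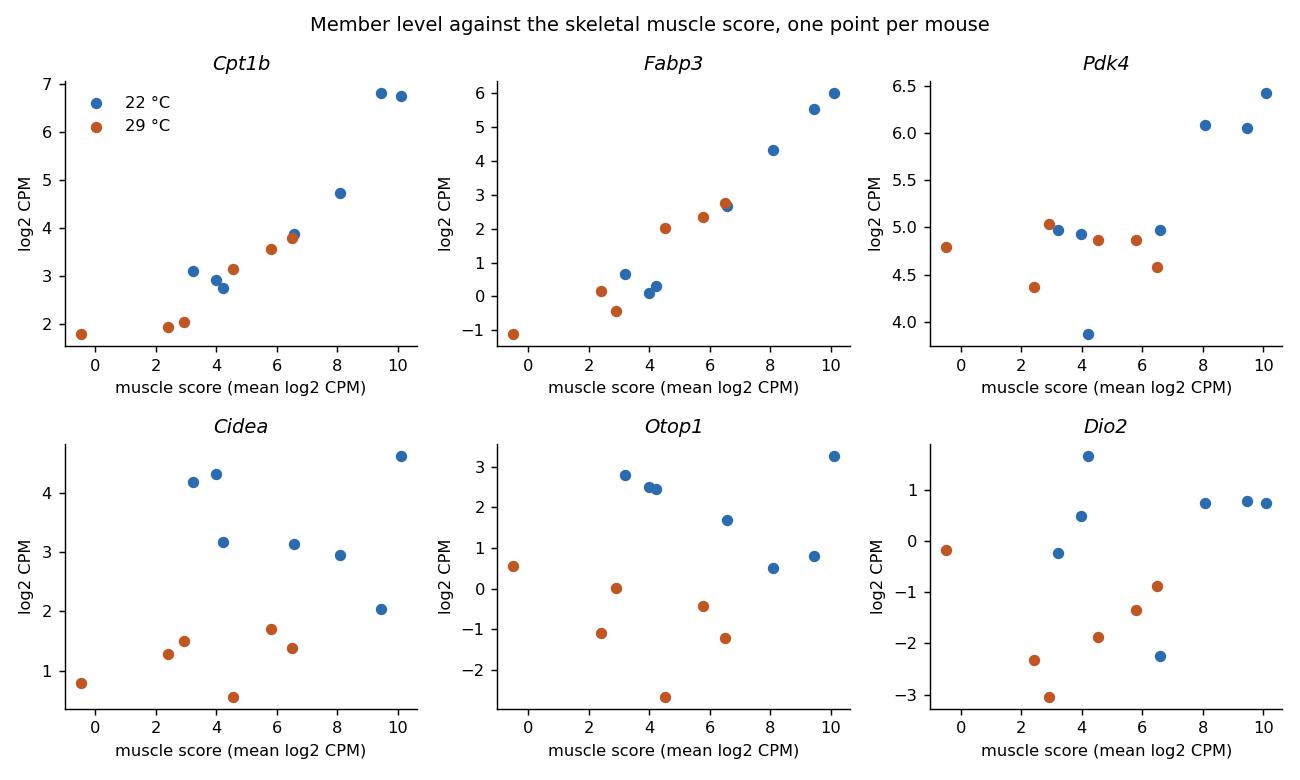
Level of 6 members (log2 CPM, vertical) against the skeletal muscle score (mean log2 CPM of 35 muscle genes, horizontal), 1 point per mouse, blue for 22 °C (7 mice) and orange for 29 °C (6 mice). *Cpt1b* and *Fabp3* rise with the score at both temperatures (r between 0.925 and 0.986), and the *Cidea* points of the 2 temperatures do not overlap.

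*Cidea* and *Otop1* made another pair. At 22°C their r was 0.856 (exact permutation p = 0.0115, adjusted 0.184 over a family of 16; rho = 0.929, p = 0.00675, adjusted 0.108) and 0.773 without the 2 mice farthest from the median *Cidea* level, and at 29°C r was 0.387 (exact permutation p = 0.456, adjusted 0.859; rho 0.314). No correlation with *Cidea* passed after adjustment. As a description over all 13 mice, after subtracting the mean of each temperature, r was 0.96 between *Cpt1b* and *Fabp3*, 0.77 between *Cpt1b* and *Pdk4*, 0.70 between *Cpt1b* and *Acot11* and 0.67 between *Cidea* and *Otop1*. *Letmd1* ran with *Otop1* (0.73) and against *Fabp3* (-0.78) and *Cpt1b* (-0.64). These values share libraries and library totals.

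**Figure D3:**
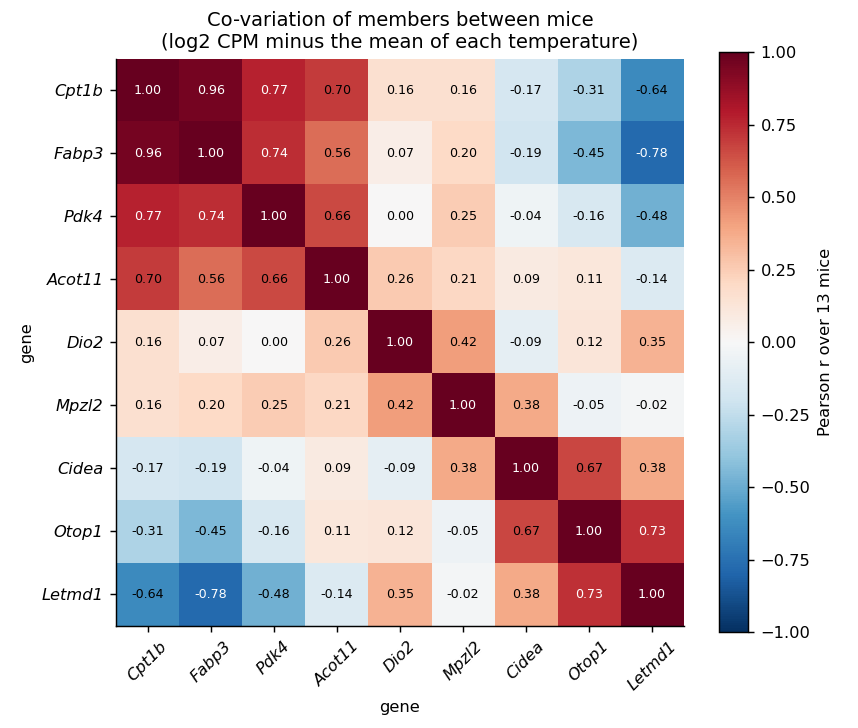
Pearson r between the 9 tested members over 13 mice, from log2 CPM minus the mean of each temperature, from -1 (blue) to 1 (red). *Cpt1b*, *Fabp3*, *Pdk4* and *Acot11* form 1 block with r between 0.56 and 0.96, and *Cidea*, *Otop1* and *Letmd1* another with r between 0.38 and 0.73.

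By the same measure, the 5 tested genes most like *Cpt1b* were *Pfkm* (0.989), the phosphofructokinase of muscle, and *Alpk3*, *Cacnb1*, *Synm* and *Srl* (0.987 each). *Pfkm* averaged 369.9 ± 489.9 CPM at 22°C (SD, n = 7), against 59.1 ± 39.2 CPM at 29°C (SD, n = 6). The 5 most like *Cidea* were *Nucks1* (0.914), *Gna13* (0.896), *Fbxo30* (0.872), *Brox* (0.869) and *Gtpbp10* (0.863). None of these 5 was called between temperatures by edgeR (log2 fold changes from 0.03 to 0.21), against 2.51 for *Cidea*.

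The temperature difference of the members was read again with the muscle score as a covariate and without 22°C replicates 1, 4 and 7. *Cidea* was 2.51 higher at 22°C on the log2 scale with the covariate (SE 0.44; P-adj = 0.0606, edgeR) and 2.59 higher (SE 0.30; P-adj = 0.0353, edgeR) without the 3 libraries. *Otop1* had 3.31 (SE 0.64; P-adj = 0.0939, edgeR) and 3.05 (SE 0.54; P-adj = 0.0880, edgeR). Both were called in either fit, and 41 and 43 genes were called in all.

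The fatty acid members moved toward 0 or past it in the same fits. For genes that follow the muscle score, a move toward 0 in these fits was partly set in advance. The log2 fold change of *Cpt1b* was 0.35 with the covariate (SE 0.38; P-adj = 0.777, edgeR) and 0.29 (SE 0.43; P-adj = 0.835, edgeR) without the 3 libraries. *Fabp3* turned to -0.36 (SE 0.32; P-adj = 0.718, edgeR) and -0.25 (SE 0.82; P-adj = 0.940, edgeR). *Pdk4* had 0.16 (SE 0.33) and -0.025 (SE 0.21), and *Acot11* 0.30 (SE 0.34) and 0.18 (SE 0.20), none of them called. *Dio2* (2.32 and 2.04) and *Mpzl2* (0.83 and 0.82) stayed near their values in all mice, and neither was called. Where the muscle RNA in these libraries came from was not tested.

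**Figure D4:**
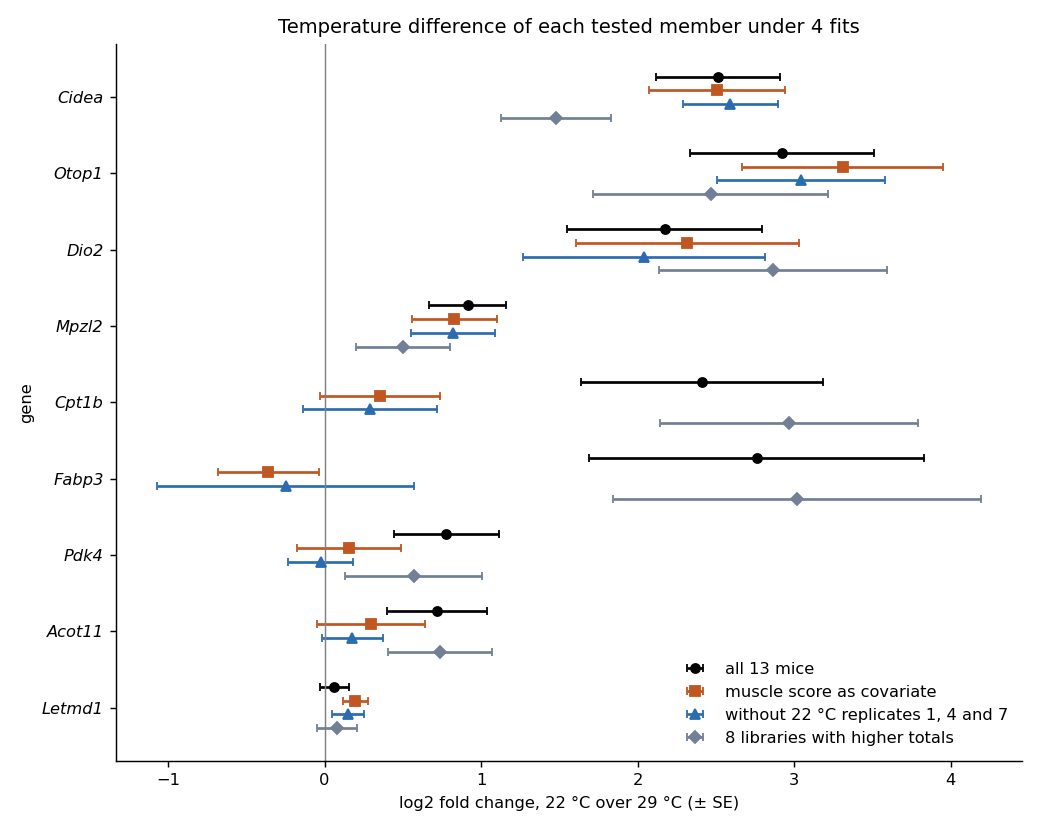
Log2 fold change of each tested member, 22 °C over 29 °C, with its SE, in 4 edgeR fits: all 13 mice, the muscle score as a covariate, without 22 °C replicates 1, 4 and 7, and the 8 libraries with higher totals. *Cidea* and *Otop1* stay between 1.48 and 3.31 in all 4, while *Cpt1b* and *Fabp3* lie between -0.36 and 0.35 in the 2 fits that take account of muscle. For genes that follow the muscle score, a move toward 0 in those 2 fits is partly set in advance.

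Of 47 other brown and beige fat genes, 43 were tested, 27 had a log2 fold change above 0 and 16 below, with a median of 0.12, and 4 (9.3%) were called, all higher at 22°C, against 1.94% of all tested genes in either direction and 0.731% higher. An unadjusted p below 0.05, in either direction, was found for 19 of the 43, against 18.5% of all genes. *Slc25a20*, the carnitine carrier of the inner mitochondrial membrane, averaged 64.3 ± 6.58 CPM at 22°C (SD, n = 7), against 45.7 ± 3.83 CPM at 29°C (SD, n = 6). It rose by 0.49 on the log2 scale (SE 0.08; P-adj = 0.0174, edgeR) and was called in each of the 13 fits that left out 1 mouse. *Slc25a20* was not called with the library total cluster as a covariate (0.37, P-adj = 0.234, edgeR) or within the libraries with higher totals (0.36, P-adj = 0.265, edgeR). *Cox8b*, which encodes a subunit of respiratory complex IV used in muscle and brown fat, was called at 2.27 (SE 0.53; P-adj = 0.0827, edgeR) but had 1.28 (P-adj = 0.158, edgeR) with the muscle covariate.

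*P2rx5*, a purinergic receptor used as a brown fat surface marker, was higher by 1.17 on the log2 scale (SE 0.29; P-adj = 0.0896, edgeR) and *Zfp516*, a transcription factor of the brown fat programme, 0.37 (SE 0.08; P-adj = 0.0726, edgeR). With the muscle covariate neither was called (0.99, P-adj = 0.264 for *P2rx5* and 0.32, P-adj = 0.237 for *Zfp516*, edgeR), and without 22°C replicates 1, 4 and 7 none of *P2rx5* (P-adj = 0.191), *Zfp516* (P-adj = 0.211) and *Cox8b* (P-adj = 0.210) was. These 3 were also not called at higher totals (P-adj = 0.352, 0.346 and 0.239, edgeR). Among fits that left out 1 mouse, *P2rx5* was called in 2 of 13 (without 22°C replicates 2 or 6), *Cox8b* in 4 (without 22°C replicates 2, 3, 5 or 6) and *Zfp516* in 5 (without 22°C replicates 2, 5 or 6 or 29°C replicates 4 or 5), with P-adj up to 0.207, 0.179 and 0.170 in the rest. By kind, 1 of 13 regulators and 3 of 16 effectors were called, and none of 4 brown lineage markers or 10 beige markers. At an unadjusted p below 0.05 were 6 of the 13 regulators and 8 of the 16 effectors. So were 1 of the 4 lineage markers and 4 of the 10 beige markers. Among these, the lineage marker *Lhx8* (-0.61), the effectors *Acsl5* (-0.21) and *Adrb1* (-0.94) and the beige marker *Tnfrsf9* (-0.71) were lower at 22°C. The rest were higher, among them all 6 regulators. Beside *Zfp516* these were *Ppargc1a* (0.87), *Esrra* (0.32), *Esrrg* (2.7), *Ppara* (0.33) and *Cebpb* (0.47). Higher effectors were the 3 called and *Cox7a1* (2.26), *Gk* (0.30) and *Plin5* (0.52). Higher beige markers were *Tbx1* (1.26), *Hoxc9* (0.28) and *Slc27a1* (0.37). *Lhx8*, *Hoxc9* and *Slc27a1* were among the 3 most abundant of their lists. The other uncalled genes named here were chosen after their values were seen. DESeq2 called 5, 6, 1 and 3 of these lists, against 10.2% of all genes, and 2 of its 15 calls were lower at 22°C. Of the 13 regulators, 9 had a log2 fold change above 0 and 4 below. The 3 most abundant were *Adrb3*, the β3-adrenergic receptor, *Pparg*, the adipocyte master regulator, and *Nfia*. Their log2 fold changes were -0.28 (SE 0.24, P-adj = 0.561, edgeR), -0.20 (SE 0.10, P-adj = 0.310, edgeR) and 0.05 (SE 0.09, P-adj = 0.810, edgeR).

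Of 24 genes of fatty acid oxidation that respond to PPAR, 21 were tested and 14 had a log2 fold change above 0 and 7 below, with a median of 0.09. edgeR called none, against 1.94% of all tested genes. An unadjusted p below 0.05 was found for 2, against 18.5% of all genes, and DESeq2 called 1, against 10.2%. With 21 genes tested, no call by edgeR is near the share over all genes. *Acadm* and *Hadh*, which act in the oxidation itself, had log2 fold changes of 0.09 and 0.11.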

How the data were processed

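RNA of gluteal WAT was measured in 13 mice, put into groups by the temperature in the submitters' labels. The processing notes name FastQC, STAR 2.7.5a, featureCounts, DESeq2 and the GRCm39 build. The authors deposited raw counts per gene, without normalization, for 34419 genes, and regularized log2 values, which were not used here. The strand setting and annotation are not given in the sources used here, so counts of overlapping genes are uncertain. Symbols were taken by unversioned identifier (34006 genes), and exon lengths and overlaps from GENCODE on GRCm38.p6.

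Counts were tested with edgeR 4.0.16 in R 4.3.3 (TMM, filterByExpr, quasi-likelihood F test, Benjamini-Hochberg adjustment over 17779 genes, P-adj below 0.1, no covariate), after the scripts were tested on simulated data. SE is the absolute log2 fold change divided by √F. TMM-scaled library sizes were used for CPM, with a prior count of 2 on the log2 scale. Correlations and *Ucp1* used exact permutation tests (scipy 1.17.1). No 2 libraries were alike (lowest chi-square per gene 15.5 over 78 pairs). DESeq2 1.42.0, its size factors, no filter, a mean of at least 10 counts, a replicate block, muscle score, library totals and single libraries left out were alternatives. The fits without 22°C replicates 1, 4 and 7 were chosen after seeing the data. The members and all lists were chosen with earlier results of these data known. Genes named are the members, those called or among the 3 most abundant tested of each list, and the 5 most like *Cidea* or *Cpt1b*. Any others are said to be chosen after their values were seen.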

Additional observations from a re-analysis of the deposited data

Results flagged for a closer look

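Sums of marker lists were checked for a single mouse that lies far from the rest of its group, in 46 groups of 6 or 7 mice together with the members. A sample was picked where its gap to the nearest other mouse was large against the range of the group, and chance picks about 1 in 20 groups. Of the 46, 5 were picked, all at 29°C and none of them a member. The sum of thermogenic effectors was 711 CPM in 29°C replicate 6, above the others at 29°C (519 to 572 CPM). Beige markers summed to 541 CPM in 29°C replicate 1, below the others. *Slc27a1* alone averaged 707 CPM at 29°C, so the beige sum is mostly that gene. The 47 other brown and beige fat genes, which include the beige markers, together summed to 2480 CPM in the same replicate 1. Blood markers summed to 3380 CPM in 29°C replicate 2, and epithelium markers to 495 CPM in 29°C replicate 4.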

How the results depend on the processing

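Of all tested genes, edgeR called 345 (130 higher at 22°C) and DESeq2 1676 (914 higher). The count was 42 without a filter on low counts, 41 with the muscle score as a covariate, 4 with the library total cluster as a covariate, 8 in the libraries with higher totals and 43 without 22°C replicates 1, 4 and 7, and from 32 to 652 when single libraries were left out, outside 1.5 times of 345 for each library but 22°C replicate 2. Of the members, 2 were called by edgeR and 6 by DESeq2 (*Cidea*, *Otop1*, *Dio2*, *Cpt1b*, *Fabp3*, *Mpzl2*; 10.2% of all genes), 1 without a filter, 0 with the cluster covariate and 0 at higher totals (5 with an unadjusted p below 0.05 in each), and from 1 (without 29°C replicates 1, 2, 3 or 5) to 4 (without 22°C replicate 2) with single libraries left out. Of the other brown and beige fat genes, 4 were called, against 15 by DESeq2, 1 without a filter, 1 with the muscle covariate, 0 with the cluster covariate, 0 at higher totals (13 and 11 with an unadjusted p below 0.05), 1 without the 3 libraries and 1 to 7 with single libraries left out, within 1.5 times of 4 without 22°C replicates 2, 3 or 5 alone. The PPAR list went from 0 to 1 by DESeq2 (0 to 1 over single libraries), and the muscle list from 0 to 22 (0 to 3), with the highest values without 22°C replicate 6. *Fabp3* reversed to -0.36 with the muscle covariate and -0.25 without the 3 libraries, and *Pdk4* to -0.025 without them. The *Ucp1* difference lay between 0.0408 and 0.102 CPM over single libraries. The causes were not tested.

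The labels name no animal, litter or day that same-numbered mice of the 2 temperatures share, so the pairing is by number alone. With the number as a replicate block over 12 libraries, 4 members were called (*Cidea*, *Otop1*, *Dio2* at P-adj = 0.0976 and *Mpzl2* at 0.0298, edgeR) and 2 muscle genes. The same fit called 263 genes in all, 95 higher and 168 lower at the cooler temperature, and the 4 members were all among the higher ones. Deviations of same-numbered libraries correlated at 0.0508 for replicate 5 and at 0.348 to 0.513 for replicates 1 to 4 and 6. Of the 12 libraries, 7 correlated best with their own number. What same-numbered libraries share was not tested, and the main fit had no such block. For *Ucp1*, a count of 0 allows a level up to the upper limit of its exact Poisson 95% interval.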
